A study of Mus musculus with 144 samples.

Results

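Transthyretin (Ttr) and 6 further genes of choroid plexus epithelium (Enpp2, Otx2, Kcnj13, Kl, Folr1 and Clic6) were followed through RNA of mouse neural stem cells, which lie in the wall of the ventricle that also holds choroid plexus. The set was chosen from the bulk values of these data, in which Ttr was near 0 at 5 weeks and present at 7 weeks and 7 months, and Ensembl gene IDs picked the 7 rows out of the 37621 rows of the table. The material was Tlx-expressing cells (Tlx is a nuclear receptor of neural stem cells) of the subventricular zone, isolated by flow cytometry and sequenced either as single cells or as bulk pools, each of 500 cells. Single cells carry the labels aNSC (active neural stem cell) or qNSC (quiescent neural stem cell) and an age: 32 aNSC and 16 qNSC at 5 weeks, 16 and 23 at 7 weeks, and 10 and 19 at 7 months, which makes 116 labelled cells. A further 14 single-cell libraries are marked as filtered out and were kept apart. The 13 bulk libraries comprise 9 at 5 weeks, 2 at 7 weeks and 2 at 7 months. Library titles fall into 9 sets: A3_1 to A3_3 (5 weeks), A2_1 to A2_3 (7 weeks) and A1_1 to A1_3 (7 months). No strain, sex, animal or treatment is named in the labels, so a title set was the unit of comparison, and age and title series cannot be told apart.

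The choroid plexus is the secretory epithelium of the brain ventricles and makes most of the cerebrospinal fluid. Its cells are known for very abundant transthyretin, a secreted carrier of thyroid hormone and of the retinol-binding protein. Enpp2 encodes autotaxin, the secreted enzyme that makes lysophosphatidic acid, and is also well known from oligodendrocytes. Otx2 is a homeodomain transcription factor of choroid plexus development, Kcnj13 an inwardly rectifying potassium channel, Kl the anti-ageing receptor partner klotho, Folr1 the folate receptor alpha, and Clic6 a chloride intracellular channel family protein. Whole choroid plexus cells would carry several of these genes at once. The results therefore give each gene's level first and the joint presence in single cells after it. The levels of the other genes relative to Ttr in choroid plexus were not measured here. Their zeros beside low Ttr are therefore not read as a verdict on choroid plexus RNA.

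Abundance is in TPM, a value scaled for gene length and library total. Read counts cannot be had from it, so the depth is unknown, and a value of 0 means that the gene is listed at 0. Genes reaching 1 TPM numbered 13497 to 14221 in bulk libraries, 1016 to 4161 in labelled cells and 4720 to 12188 in the filtered-out libraries. Astroglial genes were plentiful in the pools, with 17 of 18 list genes at 1 TPM or more in all 13 bulk libraries. The Y-linked genes Ddx3y, Eif2s3y, Uty and Kdm5d were at 0 in both 7-month pools and above 0 in every 5-week and 7-week pool, so a difference of the 7-month pools cannot be told apart from a difference in sex of the source animals. The A2_2 pool at 7 weeks stood apart in erythroid genes, which summed to 576.7 TPM against 25.3 TPM at most in any 5-week pool. Their part in the results was not tested.

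In bulk, Ttr was the one gene of the set whose age groups were far apart. In the 9 pools at 5 weeks, Ttr was listed at 0 in 7 and at 2.42 and 2.24 TPM in 1 library each of sets A3_1 and A3_3. Both pools at 7 weeks held Ttr, at 82.37 TPM (A2_2) and 100 TPM (A2_3), and both pools at 7 months held less, at 29.95 TPM (A1_1) and 51.78 TPM (A1_2). Every older pool was above every 5-week pool, the pattern on which Ttr was chosen. The 7-week and 7-month values did not overlap, with 2 pools each. The share of all genes that separate in these ways was not counted, so nothing is read from the separation. Title-set means were 0.518 ± 0.449 TPM (SD, n = 3), 91.2 ± 12.5 TPM (SD, n = 2) and 40.9 ± 15.4 TPM (SD, n = 2). On the log2(TPM + 1) scale Ttr was 6.13 (SE 0.43) higher at 7 weeks and 4.95 (SE 0.43) higher at 7 months than at 5 weeks. Because Ttr was chosen on this contrast, its difference is a description without a test. The summed level of 18 astroglial genes also varied, at 9629 to 16350 TPM in the 5-week pools, 14290 to 19240 TPM at 7 weeks and 18850 to 26450 TPM at 7 months. Its ranges overlapped between 5 and 7 weeks and between 7 weeks and 7 months. Its part in the Ttr values was not tested.

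For the genes around Ttr, the background of the bulk age comparisons was low. With limma and Benjamini-Hochberg adjustment at 0.05, 5 of 13668 genes passed between 7 and 5 weeks (0.0366%), 8 between 7 months and 5 weeks (0.0585%) and 9 between 7 months and 7 weeks (0.0658%). Ttr is counted in the first 5 and the next 8, and nothing is read from that, since it was chosen on this contrast. The other 4 genes called at 7 weeks were Gm5514 and Gm13394 (higher) and Gm4735 and Eno1b (lower), of which the first 3 are annotated as processed pseudogenes, copies that can share reads with their parent genes. In bulk, fewer cells of a type and less RNA per cell cannot be told apart.

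**Figure D1:**
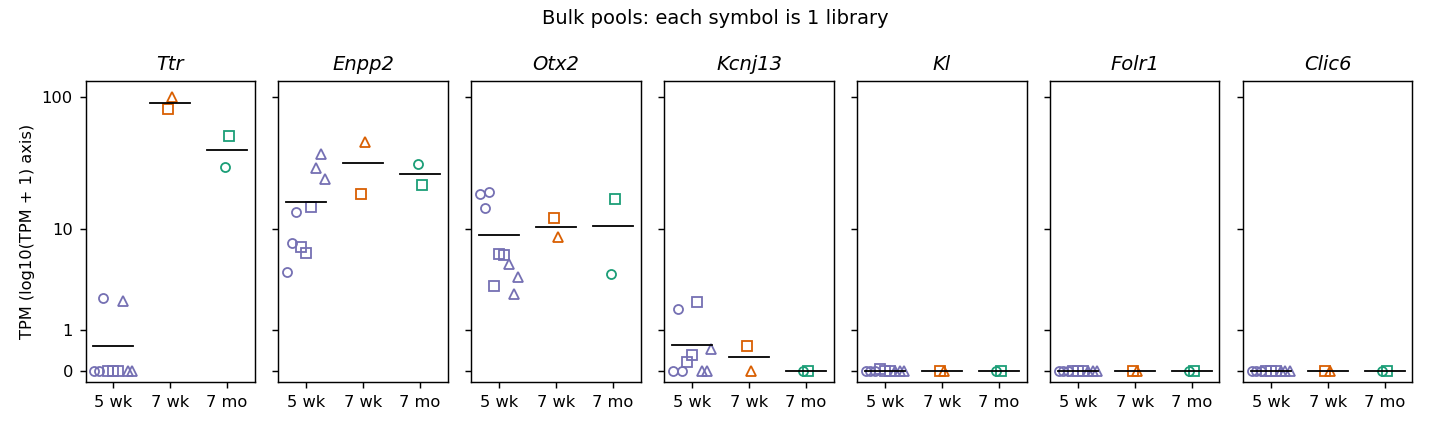
TPM of the 7 genes in the 13 bulk libraries, on a log10(TPM + 1) axis, by age. Each symbol is 1 library (circle, square and triangle: title sets ending in 1, 2 and 3), and the line is the mean of the title sets. Ttr sits at 0 to 2.42 TPM at 5 weeks and at 29.95 to 100 TPM at the older ages, Enpp2 and Otx2 overlap between ages, and Kl, Folr1 and Clic6 lie on or next to 0.

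Enpp2, the autotaxin gene, was above 0 in all 13 pools. At 5 weeks it was 4.31, 7.73 and 13.63 TPM in set A3_1, 7.11, 6.32 and 14.99 TPM in A3_2, and 29.77, 37.67 and 24.32 TPM in A3_3. The older pools held 18.91 and 46.41 TPM at 7 weeks and 32 and 21.89 TPM at 7 months. The A3_3 pools lay within the older range while the other 6 pools of 5 weeks lay below it, so the ages overlapped. Set means were 16.2 ± 12.5 (SD, n = 3), 32.7 ± 19.5 (SD, n = 2) and 26.95 ± 7.15 TPM (SD, n = 2). The log2 difference of Enpp2 was 1.14 (SE 0.60, limma adjusted p = 0.569) between 7 and 5 weeks and 0.98 (SE 0.60, limma adjusted p = 0.978) between 7 months and 5 weeks, and neither passed.

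The promoter of Otx2 is shown because the gene is the transcription factor of the set and because 1 of its annotated start sites carries the core letters bound by Otx-type homeodomains. The 250 bases before that start site, from RefSeq (GRCm38.p6, chr14:48665110-48665359, minus strand, printed 5′ to 3′), hold the motif TAATCC on the opposite strand. It reads GGATTA here, in capitals, 211 bases before the start site.
Otx2: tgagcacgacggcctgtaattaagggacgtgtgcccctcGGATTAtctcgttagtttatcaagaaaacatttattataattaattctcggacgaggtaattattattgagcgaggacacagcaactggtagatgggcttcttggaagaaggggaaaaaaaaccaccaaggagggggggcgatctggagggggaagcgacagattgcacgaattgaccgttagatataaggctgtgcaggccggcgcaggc
Promoter windows were read for 3 of the 7 genes (Otx2 with 4 start sites, Kl and Kcnj13 with 1 each). Ttr was not among the genes read, and 1 of these 6 windows held TAATCC or GGATTA. The share among all 32851 promoter windows of this length was 6.25%. The match describes letters in the reference and was not tied to any measurement of these cells.

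Otx2 was present in every pool at low levels. At 5 weeks it was 18.93, 14.57 and 19.36 TPM in set A3_1, 3.2, 6.20 and 6.03 TPM in A3_2, and 5.12, 2.67 and 3.90 TPM in A3_3. The older pools held 12.24 and 8.52 TPM at 7 weeks and 4.10 and 17.14 TPM at 7 months. All ages overlapped, and the 3 libraries of set A3_1 were the highest of 5 weeks. The log2 difference from 5 weeks was 0.47 (SE 0.71, limma adjusted p = 0.856) at 7 weeks and 0.25 (SE 0.71, limma adjusted p = 0.997) at 7 months. The sign at 7 months rested on single sets: without A1_2 it was -0.67 and without A3_3 it was -0.13. An antisense RNA gene, Otx2os1, overlaps Otx2 on the other strand in the GENCODE annotation and has no row in the table, and strand use in the counting is not stated.

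The remaining 4 genes were near or at 0 in the pools and below the filter of the test. Kcnj13 was above 0 in 5 of the 9 pools at 5 weeks (0.17 to 2.21 TPM) and in 1 pool at 7 weeks (0.53 TPM), and was listed at 0 in both 7-month pools. Those values do not follow Ttr, since the 2 highest (1.85 and 2.21 TPM) were in 5-week pools with Ttr at 0. Kcnj13 lies on the other strand from Gigyf2 in an overlapping position. Klotho was listed at 0 in 12 of 13 pools and at 0.04 TPM in the other. Folr1 and Clic6 were listed at 0 in all 13.

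The wider choroid plexus list gave a similar picture. Of 42 further genes, 5 were at 0 in all 13 pools (Col8a1, Tmem72, Lmx1a, Cdh3 and Cdhr3), 7 were at 1 TPM or more in all 13, and 13 had a mean of at least 1 TPM over the 7 title sets with pools. The most abundant were Gpx8 (79.4 TPM, an endoplasmic reticulum peroxidase), Tcn2 (53.0 TPM, transcobalamin), Rdh5 (31.7 TPM, a retinol dehydrogenase), Cab39l (21.9 TPM), the cation channel gene Trpm3 (12.9 TPM) and the monoamine transporter gene Slc29a4 (7.45 TPM). By limma, 0 of the 13 tested genes passed a bulk age comparison, and at an unadjusted p under 0.05 there were 2 at 7 weeks against 5 weeks, 1 at 7 months against 5 weeks and 0 at 7 months against 7 weeks. Over all 13668 genes the shares at that level were 9.82%, 5.77% and 12.65%. Their median log2 difference was 0.09 at 7 weeks against 5 weeks, 0.47 at 7 months against 5 weeks and 0.21 at 7 months against 7 weeks. The summed level of the 42 genes was 161.9 to 292.9 TPM in the 5-week pools, 206.0 to 294.5 TPM at 7 weeks and 245.6 to 263.0 TPM at 7 months, and these ranges overlapped. The sum is weighted to the most abundant genes, Gpx8 and Tcn2 first, and is not read as a measure of choroid plexus RNA. Among the less abundant list genes, Kcne2 was at 0 in 12 pools, Sostdc1 in 12 and Cldn2 in 11. Aqp1 was at 0 in 9, with at most 0.40 TPM as a set mean. Other list genes went the other way: Bmp7, Msx1 and Slc4a2 were above 0 in every pool, and Prlr and Slc13a4 were each at 0 in 2.

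**Figure D2:**
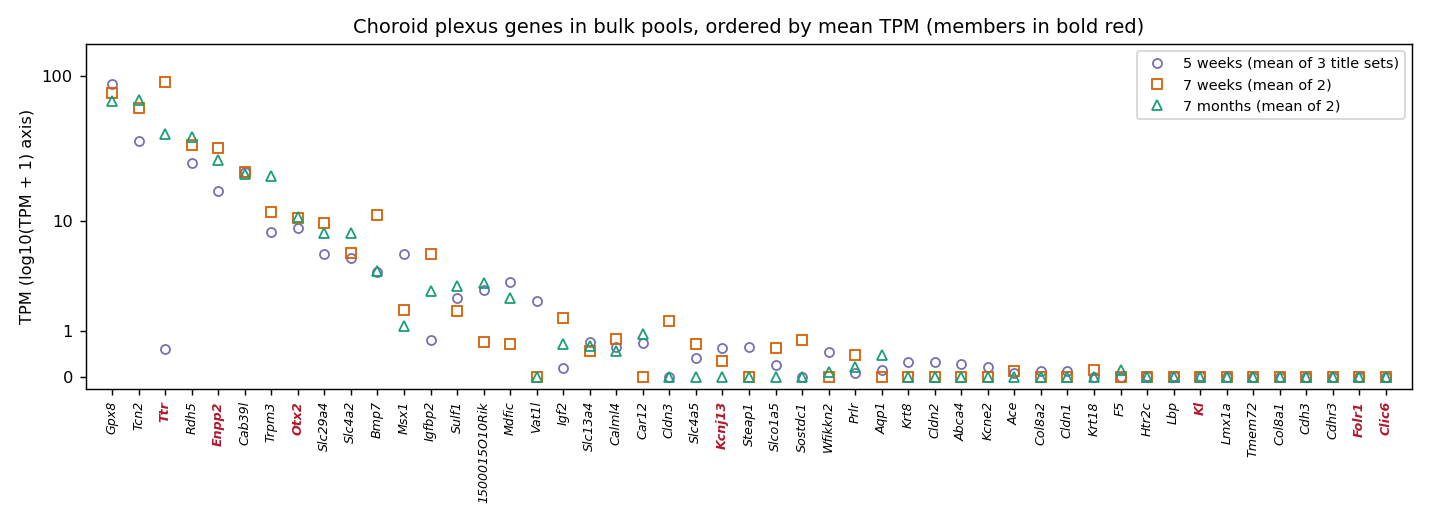
Mean TPM of the 7 genes (bold red) and of 42 further choroid plexus genes in bulk pools, on a log10(TPM + 1) axis, with 1 symbol per age (3 title sets at 5 weeks, 2 at 7 weeks, 2 at 7 months). Ttr is the gene with the widest gap between 5 weeks (0.518 TPM) and 7 weeks (91.2 TPM), and the genes to the right of Mdfic have means under 1 TPM over the sets.

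Genes that handle what these proteins carry or make were present in the pools and did not pass an age comparison. In the list of thyroid hormone and retinol carriers, transport and response, 17 of 24 genes had a set mean of at least 1 TPM, led by Crym (228 TPM, a thyroid hormone binding protein) and Slco1c1 (186 TPM, a thyroxine transporter). Of 16 tested with limma, 0 passed in each of the 3 bulk age comparisons. At an unadjusted p under 0.05 there were 2 at 7 weeks and 2 at 7 months against 5 weeks, and 4 between 7 months and 7 weeks, to be read against the shares over all genes given above. Rbp4, the plasma retinol carrier that binds transthyretin, had a set mean of 0.0681 TPM, and albumin and Serpina7, the other carriers of thyroid hormone in blood, were at 0 in all pools. In the list of partners of klotho, autotaxin and the folate receptor, 18 of 25 genes had a set mean of at least 1 TPM, led by the lipid phosphatase gene Plpp3 (739 TPM) and the receptor gene Fgfr3 (134 TPM). Of 17 tested with limma, 0 passed in each bulk age comparison, and 3, 2 and 4 had an unadjusted p under 0.05, in the same order.

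In single cells, Ttr took 2 ranges: very high in a few cells and a trace in others. Of the 116 labelled cells, 7 had 419.6 to 1665 TPM, and these cells held 99.2% of all Ttr TPM summed over cells. A further 26 cells had between 0.13 and 9.29 TPM (median 0.685), and 83 were listed at 0. No cell lay between 9.29 and 419.6 TPM, so the level of 10 TPM falls inside a gap.

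The 7 high cells all came from the older ages. At 7 weeks there were 4, in qNSC at 861.7 TPM (A2_1) and 990.7 TPM (A2_2) and in aNSC at 440.4 TPM (A2_1) and 419.6 TPM (A2_2). At 7 months there were 3, all qNSC, at 1665 and 612.5 TPM (A1_3) and 464.5 TPM (A1_2). Sets A2_3 and A1_1 held no such cell. With 1 TPM as the detection level, Ttr was found in 0 of 48 cells at 5 weeks, which allows a share of up to 6.25% as 3 counts of the total, or 7.40% as the upper exact Clopper-Pearson bound. It was found in 6 of 39 at 7 weeks (15.4%, exact Clopper-Pearson 95% interval 5.86% to 30.5%) and in 10 of 29 at 7 months (34.5%, 17.9% to 54.3%). At 10 TPM the 7-month share was 10.3%. These intervals cover counting error only, and cells of 1 title set share their source.

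Any value above 0 was seen in none of the 48 cells of 5 weeks (0 of 48), in 13 of the 39 of 7 weeks and in 20 of the 29 of 7 months. By set the counts were 8 of 15 in A2_1, 4 of 12 in A2_2, 1 of 12 in A2_3, 3 of 8 in A1_1, 6 of 10 in A1_2 and 11 of 11 in A1_3. The 6 older sets had a mean log2(TPM + 1) of 1.33 ± 1.06 (SD, n = 6; range 0.09 to 2.91) against 0 in each of 3 sets of 5 weeks. The cells carry the same title sets as the pools on which Ttr was chosen, and complete separation had been seen first, so the difference is given without a test. Trace values in general also differed between ages: the median number of genes above 0 and below 1 TPM per cell was 1777 at 5 weeks, 2469 at 7 weeks and 2927 at 7 months. Their part in the Ttr traces was not tested.

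The limma fits over set means of cells tested none of the 7 genes, since all were below the filter of a mean log2(TPM + 1) of 1. For scale, 0 of 4217 genes passed at 7 weeks against 5 weeks (0.0%; 449 at an unadjusted p under 0.05), 85 at 7 months against 5 weeks (2.02%) and 34 at 7 months against 7 weeks (0.806%). With no filter Ttr entered the fits, with a log2 difference from 5 weeks of 1.07 at 7 weeks and 1.58 at 7 months. In those fits 0 and 4 of 24257 genes passed, and Ttr was not among them. Nothing is read from that, since Ttr was chosen on pools of the same title sets.

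**Figure D3:**
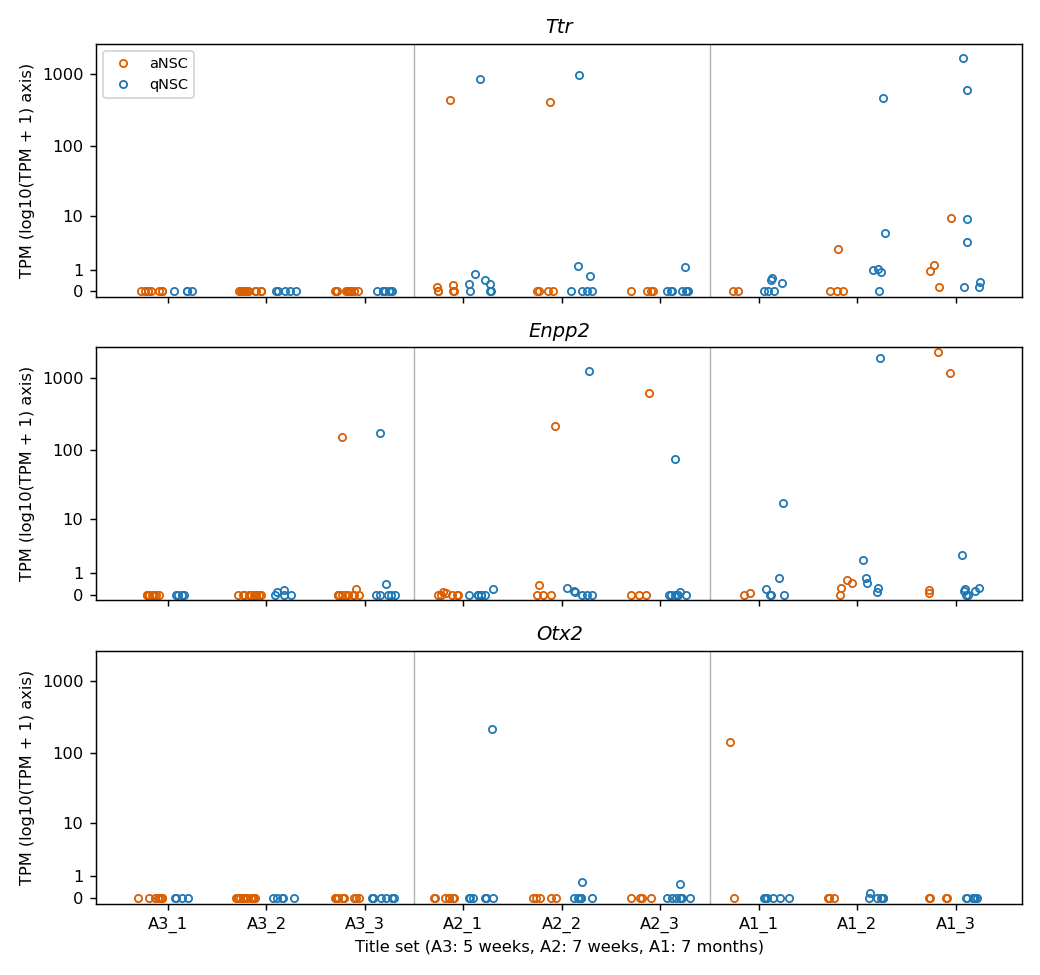
TPM of Ttr, Enpp2 and Otx2 in each of the 116 labelled cells, on a log10(TPM + 1) axis, by title set and stage (orange aNSC, blue qNSC). Ttr is at 0 in all 48 cells of 5 weeks and reaches 419.6 to 1665 TPM in 7 older cells, Enpp2 has high cells at each age, and Otx2 is high in 2 cells.

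By stage, Ttr was at 1 TPM or more in 2 of 16 aNSC and 4 of 23 qNSC at 7 weeks (12.5% and 17.4%), and in 3 of 10 aNSC and 7 of 19 qNSC at 7 months (30% and 36.8%). All 32 aNSC and 16 qNSC of 5 weeks were at 0. Its mean log2(TPM + 1) was 1.12 in aNSC and 1.07 in qNSC at 7 weeks, and 0.76 and 2.23 at 7 months. The mean difference over the 3 ages, 0.47 lower in aNSC, therefore came from 7 months, and it was below the filter and without a test. Enpp2 passed the filter narrowly, with means of 1.22 in aNSC and 0.815 in qNSC. It was 0.41 higher in aNSC (SE 0.41, limma adjusted p = 0.485). By age its means were 0.23 in aNSC and 0.52 in qNSC at 5 weeks, 1.104 and 0.76 at 7 weeks, and 2.33 and 1.17 at 7 months. The aNSC of 7 months include 2 cells at 2277 and 1167 TPM, with oligodendrocyte list means of 8.43 and 8.64 on the log2(TPM + 1) scale. No fit was made without these 2 cells, so the direction is not read as a stage difference. In the stage comparison 1071 of 4214 genes passed (25.4%), 894 higher and 177 lower in aNSC. Stage differences were thus common among tested genes, and fewer of them were lower in aNSC. From the lists, Gpx8 and Tcn2 of the choroid plexus list were lower in aNSC by log2 differences of -1.90 (SE 0.48, limma adjusted p = 0.0192) and -1.65 (SE 0.48, limma adjusted p = 0.0312), out of 3 tested. The thyroid hormone genes Slco1c1 and Crym were lower as well, by -3.38 (SE 0.64, limma adjusted p = 0.00803) and -2.08 (SE 0.51, limma adjusted p = 0.0174), out of 3 tested. The median log2 difference over all tested genes was 0.71.

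The cells with much Ttr held little else of the set. In all 7, Kl, Folr1, Clic6, Kcnj13 and Otx2 were listed at 0, and Enpp2 was at most 0.71 TPM. Of the 42 further choroid plexus genes, 0 to 2 were at 1 TPM or more per cell (median 1). In the other 61 labelled cells of 7 weeks and 7 months the number was 0 to 3 (median 0), and in the 48 cells of 5 weeks it was 0 to 2 (median 1). The median over cells of the mean log2(TPM + 1) of these 42 genes was 0.212 in the 7 cells, 0.0538 in the other older cells and 0.0384 at 5 weeks, all close to 0 and highest in the 7 cells. The same median over the astroglial list was 7.19 in the 7 cells, 6.10 in the other older cells and 1.98 at 5 weeks. For the ependymal list these medians were 0.216, 0.0591 and 0, and for the oligodendrocyte list 0.745, 0.248 and 0.0583. The neuroblast list went the other way, at 0.966, 1.04 and 2.785. The 7 cells were not alike: the 2 aNSC among them had astroglial list means of 3.49 (A2_1) and 1.75 (A2_2).

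Joint presence was counted over all labelled cells. At 1 TPM or more, 88 of 116 cells had none of the 7 genes, 25 had 1, 3 had 2 and 0 had more. All 3 cells with a pair held Ttr and Enpp2. At 10 TPM or more, 97 cells had none, 19 had 1 and 0 had 2 or more.

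**Figure D4:**
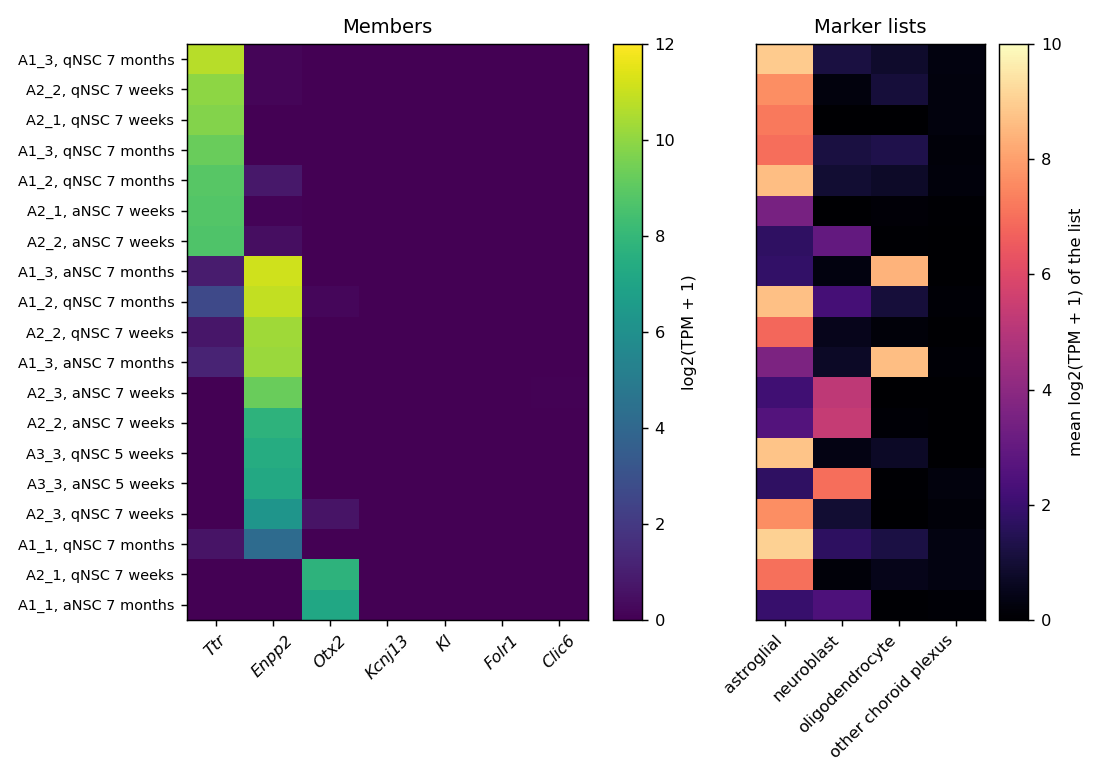
The 19 labelled cells with 10 TPM or more of any of the 7 genes, 1 row per cell with its title set, stage and age. The left panel gives log2(TPM + 1) of each gene, and the right panel the mean log2(TPM + 1) of 4 marker lists. Each cell is high in 1 gene only, the last column of the right panel stays close to 0, and 2 cells with high Enpp2 are bright in the oligodendrocyte list.

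Enpp2 in single cells also had a few high values and many traces. It was at 10 TPM or more in 10 cells, at 17.43 to 2277 TPM (median 416), which held 99.9% of its summed TPM, and the next cell was at 2.51 TPM. At 5 weeks there were 2 such cells, both in set A3_3 (149.8 TPM in aNSC and 171.7 TPM in qNSC), the set whose pools were also the highest of that age. Enpp2 reached 1 TPM in 2 of the 48 cells of 5 weeks, in 4 of the 39 of 7 weeks and in 6 of the 29 of 7 months. Any value above 0 was seen in 6, 12 and 22 of these cells (12.5%, 30.8% and 75.9%), where Ttr had 0%, 33.3% and 69.0%. Both genes thus had larger shares at the older ages, and a difference between them was not tested. The cell with 2277 TPM and a further one with 1167 TPM, both aNSC of set A1_3, had oligodendrocyte list means of 8.43 and 8.64 on the log2(TPM + 1) scale, against 1.56 in the next highest labelled cell. Without those 2 cells, left out after their values were seen, the 7-month mean of Enpp2 was 71.0 TPM instead of 185 TPM, and 4 of 27 cells were at 1 TPM or more. The other high cells had lower oligodendrocyte list means than these 2, up to 1.22 in a qNSC of A1_1 with 17.43 TPM. The median was 0.248 in the 61 older cells without high Ttr. A qNSC of A1_2 with 1891 TPM had an oligodendrocyte list mean of 1.07 and an astroglial mean of 8.70, and a qNSC of A2_2 with 1254 TPM had 0.181 and 6.81. Among aNSC, cells of A2_3 (617.8 TPM) and A2_2 (213.9 TPM) had neuroblast list means of 5.21 and 5.36.

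Otx2 was found at 10 TPM or more in 2 labelled cells, a qNSC of A2_1 at 216.3 TPM and an aNSC of A1_1 at 142.5 TPM. The next highest labelled cell was at 0.66 TPM. Both cells had Ttr, Enpp2, Kl, Folr1, Clic6 and Kcnj13 at 0. At 5 weeks Otx2 was listed at 0 in 48 of 48 labelled cells, which allows the same share as for Ttr, although all 9 pools of that age held 2.67 to 19.36 TPM. All 7 filtered-out libraries titled A3 held Otx2 above 0, and 1 of set A3_1 reached 326.7 TPM with 11073 genes at 1 TPM or more. The highest Kcnj13 value in a labelled cell was 1.21 TPM (A2_1), klotho reached 0.06 TPM, Clic6 was above 0 in 1 cell at 0.05 TPM, and Folr1 was listed at 0 in all 144 libraries.

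Pools and cells of the same title set can be set side by side in 7 sets. For Ttr the pool and the mean over cells were 82.37 and 118 TPM in A2_2, 51.78 and 47.6 TPM in A1_2, 100 and 0.0983 TPM in A2_3, and 29.95 and 0.161 TPM in A1_1. The values were near each other in the 2 sets in which a high cell had been caught, and far apart in the 2 sets without one. The sets had 8 to 12 labelled cells each, so a single high cell decides the mean. In the sets of 5 weeks the pool means were 0 to 0.807 TPM and the cells were at 0.

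Over the 7 sets, Otx2 was higher in pools than in the cell means by a log2 difference of 2.59 (SE 0.64, limma adjusted p = 0.00386), in 6 of 7 sets, with A1_1 the exception. Under quantile normalization the difference was 0.61 (limma adjusted p = 0.58) and no longer passed. Ttr (1.72, SE 1.42, limma adjusted p = 0.311) and Enpp2 (0.64, SE 1.14, limma adjusted p = 0.640) did not pass. In this comparison 5907 of 12295 genes passed (48.0%) and the median over all tested genes was 1.74, so passing was common in this comparison.

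**Figure D5:**
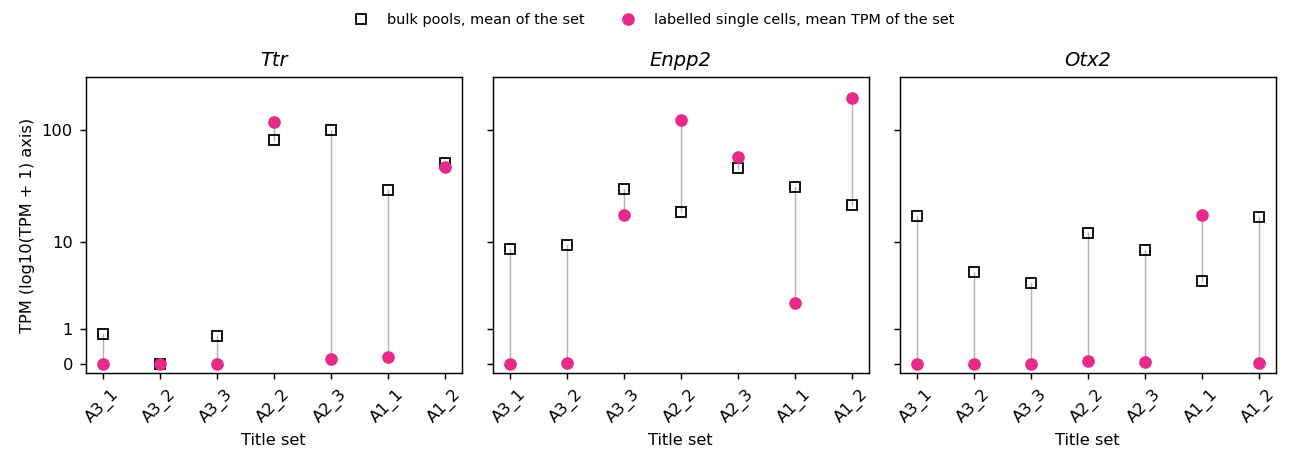
Mean TPM of the bulk pools (squares) and of the labelled single cells (filled circles) in the 7 title sets that hold both, on a log10(TPM + 1) axis, for Ttr, Enpp2 and Otx2. Ttr of pool and cells is close in A2_2 and A1_2 and far apart in A2_3 and A1_1, and Otx2 is higher in the pools in each set but A1_1.

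The genes most like Ttr over the 7 bulk title-set means were Mon1a (Pearson r = 0.986), Marc2 (0.975), Gm5083 (0.974), Elovl1 (0.971) and Ggt1 (0.970), out of 13011 genes compared, of which 8 were over 0.95. Mean TPM at 5 weeks, 7 weeks and 7 months was 6.20, 13.6 and 13.5 for Mon1a, against 0.518, 91.2 and 40.9 for Ttr. The points share library preparation and age series, and the values describe likeness only. Enpp2 had r = 0.642 with Ttr, with 802 genes higher, and Otx2 had r = 0.303, with 3275 genes higher.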

How the data were processed

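The authors deposited 1 table of TPM values per gene, for which the submitters' processing notes list RSEM 1.2.15 and mm9, a mouse build; aligner, annotation and filters are not given in the sources used here. Column sums were 710525 to 1000000. Symbols came from Ensembl IDs (32897 rows matched), and strand overlaps from GENCODE M21. A pair of 5-week qNSC libraries with r = 0.992 (next pair 0.742) was averaged and counted as 1 cell. Title-set means of log2(TPM + 1) were compared with limma 3.58.1 (R 4.3.3, trend on), two-sided, with Benjamini-Hochberg adjustment over genes with a mean of at least 1. Stages were compared over means per age with age as a replicate block, and pools with cells per title set against log2 of the cells' mean TPM plus 1. The labels do not say that sets are separate animals, so p-values measure the spread between these sets. For stages they measure the spread of the stage difference between ages. Fits were tested on simulated data. Genes, lists and the naming rule (all members, the leading list genes, the 5 genes most like Ttr) were chosen with earlier results of these data known. Leptomeningeal, endothelial, microglial, erythroid, neuronal, neuroblast, astroglial, ependymal and oligodendrocyte lists had 0 genes called by limma between bulk ages. Over all 13668 genes, 5, 8 and 9 were called. At an unadjusted limma p under 0.05, the astroglial list had 6 of 18 genes at 7 weeks and 12 at 7 months against 5 weeks. It had 5 between 7 months and 7 weeks. The oligodendrocyte list had 3, 2 and 3 of 12 in that order, and each other list here had at most 1. The shares over all genes were 9.82%, 5.77% and 12.65%. Alternatives covered pseudocount, filter, normalization, unit, stage, block and each set left out.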

Additional observations from a re-analysis of the deposited data

Results flagged for a closer look

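Among the 10 aNSC cells of 7 months, the highest cell was far above the next for each of 5 genes. For Enpp2 it was at 2277 TPM and the next at 1167 TPM, both in A1_3, and these 2 cells stood apart from the other 8. The others were Ttr at 9.29 TPM in a cell of A1_3, Kl at 0.02 TPM and Otx2 at 142.5 TPM in cells of A1_1, and Kcnj13 at 0.1 TPM in a cell of A1_2. In the 9 pools of 5 weeks, Kl at 0.04 TPM in 1 library of A3_2 stood apart from 8 libraries at 0. Where nearly all values of a group are 0, any value above 0 meets this criterion, and 6 of the 14 pairs of a gene and a group did. The nominal rate of about 1 in 20 groups does not hold for such values.

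Libraries marked as filtered out entered no comparison. In 1 of set A1_2, Kl was 0.17 TPM, and in 1 of set A3_1, Otx2 was 326.7 TPM, each above every labelled cell. Ttr was above 0 in 6 of 7 filtered-out libraries titled A1 and in 2 of 7 titled A3, at 2.42 TPM or less. All 14 are labelled 5-week, including the 7 whose titles begin with A1, a series that otherwise holds 7-month libraries.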

How the results depend on the processing

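Counts of called genes depended on the settings (limma, adjusted p under 0.05), and the cause was not tested. For 7 weeks minus 5 weeks in bulk, 5 genes became 2 with a pseudocount of 0.1, 1 with no filter, 3 with a filter at a mean of 3 and 126 with libraries as units. For 7 months minus 5 weeks in bulk, 8 became 4 with no filter and 35 with libraries as units. For 7 months minus 7 weeks in bulk, 9 became 1 with no filter and 31 with libraries as units. In cells, the 85 genes of 7 months minus 5 weeks became 55 with a pseudocount of 0.1, 4 with no filter, 33 with a filter at 3, 137 with quantile normalization, 0 in aNSC alone, 14 in qNSC alone and 0 on log2 of the mean TPM. The 34 genes of 7 months minus 7 weeks became 1 with no filter, 10 with a filter at 3, 0 in aNSC alone, 4 in qNSC alone and 0 on log2 of the mean TPM. The aNSC minus qNSC count of 1071 became 0 with no filter (2004 at an unadjusted p under 0.05), 667 with a filter at 3 and 46 on log2 of the mean TPM. Bulk minus cells, 5907 genes, became 3367 with a pseudocount of 0.1, 1893 with a filter at 3, 2567 with quantile normalization and 11571 with the mean of log2(TPM + 1) of the cells.

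Leaving out each title set or age in turn gave 2 to 4, 4 to 11 and 1 to 12 genes in the 3 bulk age comparisons, 0 to 0, 8 to 102 and 1 to 47 in the 3 cell age comparisons, 314 to 1321 for aNSC minus qNSC and 4954 to 5474 for bulk minus cells. Without the replicate block for age, 741 genes passed between stages. With title sets as units and a replicate block 1195 passed, and with title set as a replicate block 6058 passed between bulk and cells. The block changed no call of the 7 genes. The share of 7-month cells with Ttr was 34.5% at 1 TPM and 10.3% at 10 TPM.

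The members gave 798 values under the alternatives, of which 741 kept direction and side of the threshold, or stayed within 1 SD where untested. Of the rest, 46 untested values moved by more than 1 SD, 2 lost a call, 2 gained one and 7 turned sign. The values include those of Folr1, at 0 in every library, which could only stay the same. They also include Kl, Clic6 and Kcnj13, near 0 and untested in the main fits, and Ttr on the bulk contrast on which it was chosen. The tally is therefore not a measure of how firm the results are. Leaving out sets, Otx2 at 7 months minus 5 weeks ranged from -0.67 (without A1_2) to 1.17 and was -0.13 without A3_3. At 7 months minus 7 weeks Otx2 ranged from -1.14 to 0.69 (without A1_1) and was 0.02 without A2_2, and Enpp2 ranged from -0.79 to 0.47 (without A2_3) and was 0.10 without A1_2. Enpp2 in bulk minus cells was -0.85 with quantile normalization. Depth is unknown for TPM, so no detection limit per library can be given.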
